A study of Homo sapiens with 2 samples.

Results

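Bidirectional promoters, where a pair of protein-coding genes start back to back on opposite strands, were examined in 2 ATAC-seq libraries of SUM159 cells. Members were chosen by position alone. A minus-strand gene and a plus-strand gene of GENCODE release 44 on hg38 (chromosomes 1 to 22 and X) formed a pair where they pointed apart and their gene 5′ ends lay at most 1000 bp from each other. This gave 887 pairs at 824 separate loci. They held 1710 of 19970 protein-coding genes (8.56%), and 63 genes belonged to several pairs. A readthrough gene was part of 80 pairs. A pair region ran from 1000 bp below the minus-strand 5′ end to 1000 bp above the plus-strand 5′ end, 2002 to 2996 bp in all. The promoters of the other 18260 genes, each 1000 bp either side of the 5′ end, served for comparison.

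SUM159 is an established triple-negative breast cancer line of mesenchymal, claudin-low type. Both cell populations were transduced with pLV-KRAB, a lentiviral vector for dCas9-KRAB, a cleavage-dead Cas9 joined to a repressor domain. No gRNA cells received the vector without a targeting guide, and All gRNA cells received 4 guides against the ZEB1 promoter. Each group was 1 library, so no test between groups was possible and no p-value is given.

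Back-to-back genes share the stretch of DNA between their start sites, and transcription leaves that stretch in both directions. Such promoters are commonly rich in CpG and poor in TATA boxes, and many serve housekeeping genes of DNA repair, mitochondria and the cell cycle. Open chromatin at an active promoter is a nucleosome-depleted stretch next to the start site, where the transposase Tn5 inserts sequencing adapters.

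The space between the 5′ ends, both end bases included, is shown for 6 pairs that span the range of the results. Sequences are the plus strand of hg38, so the plus-strand gene starts at the right end and the minus-strand gene at the left end. Capitals mark the letters CCAAT and GGGCGG on either strand. SARS2/MRPS12 (mitochondrial seryl-tRNA synthetase and a protein of the mitochondrial ribosome) lies at chr19:38930763-38930944, and PPAT/PAICS (enzymes of purine synthesis) at chr4:56435615-56435741. EIF2AK3/RPIA (a kinase of the endoplasmic reticulum stress response and an enzyme of the pentose phosphate pathway, chr2:88691518-88691673) and FHIP1B/CNGA4 (the latter a subunit of a cyclic nucleotide-gated channel, chr11:6234711-6234765) had some of the highest peaks. COL4A4/COL4A3 (type IV collagen chains of basement membrane, chr2:227164453-227164624) had one of the lowest. DCST2/DCST1 (sperm membrane proteins, chr1:155033781-155033824) had no peak in either library.
SARS2/MRPS12: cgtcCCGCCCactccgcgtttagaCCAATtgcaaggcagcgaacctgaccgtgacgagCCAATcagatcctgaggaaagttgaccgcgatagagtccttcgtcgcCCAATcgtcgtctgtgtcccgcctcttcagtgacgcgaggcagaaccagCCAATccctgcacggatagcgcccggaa
PPAT/PAICS: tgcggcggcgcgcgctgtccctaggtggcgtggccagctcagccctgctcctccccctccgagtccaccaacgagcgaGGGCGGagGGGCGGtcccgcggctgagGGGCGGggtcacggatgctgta
EIF2AK3/RPIA: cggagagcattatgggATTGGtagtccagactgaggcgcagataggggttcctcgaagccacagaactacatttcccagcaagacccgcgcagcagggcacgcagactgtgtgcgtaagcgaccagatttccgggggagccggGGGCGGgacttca
FHIP1B/CNGA4: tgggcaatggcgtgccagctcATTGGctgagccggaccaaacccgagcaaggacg
COL4A4/COL4A3: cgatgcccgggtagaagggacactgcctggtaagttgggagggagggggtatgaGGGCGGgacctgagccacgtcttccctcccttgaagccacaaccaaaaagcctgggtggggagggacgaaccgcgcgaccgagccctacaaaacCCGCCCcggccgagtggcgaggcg
DCST2/DCST1: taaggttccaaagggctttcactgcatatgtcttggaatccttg
The summits, as pileup (the number of extended read ends that overlap a peak's highest point), differed widely between these pairs. The strongest peak reached 90 in No gRNA and 78 in All gRNA at SARS2/MRPS12, which holds CCAAT 4 times and GGGCGG once. PPAT/PAICS, with GGGCGG 3 times, reached 226 and 110. EIF2AK3/RPIA, with 1 CCAAT and 1 GGGCGG, reached 376 and 222. FHIP1B/CNGA4, with CCAAT once in 55 bases, reached 483 and 307, the highest values of all pairs. COL4A4/COL4A3 holds GGGCGG 2 times and 14 CpG dinucleotides. Its strongest peaks, 11 and 6, lay outside the printed space, towards lower coordinates (chr2:227164101-227164449 in No gRNA and chr2:227164182-227164381 in All gRNA). The 44 bases of DCST2/DCST1 held no CpG dinucleotide.

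Facts of both lists bear on what follows. The No gRNA list held 74757 peaks and the All gRNA list 75217, and the depth of All gRNA recovered from the lists was 0.743 times that of No gRNA. ZEB1, the targeted gene, had 2 peaks within 1000 bp of its 5′ end in No gRNA (strongest pileup 27) and none in All gRNA. Of 5 mesenchymal marker genes (VIM, CDH2, SNAI2, ZEB2, FN1) all had a peak at the promoter in both libraries. Of 6 genes of epithelial or luminal cells, EPCAM had a peak in both libraries (17 and 12), CLDN7 in All gRNA alone (5), and CDH1, CLDN3, CLDN4 and ESR1 in neither. Intervals of 95% are given for shares (Wilson). They treat regions as independent and cover counting error only, with no account of variation between cultures.

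Most pairs were open. A peak lay in 828 of 887 pair regions in No gRNA (93.3%, interval 91.5 to 94.8) and in 810 in All gRNA (91.3%, 89.3 to 93.0). Over all 19970 protein-coding promoters the share was 59.8% in No gRNA and 58.5% in All gRNA. Among unpaired promoters it was 56.7% (56.0 to 57.4) and 55.5% (54.8 to 56.2). In a window of 1000 bp either side of the midpoint between the 5′ ends, the share for pairs was 93.2% in No gRNA, so the longer region made little difference.

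CpG content differed between pairs and unpaired promoters and moved with the share of open regions. Of the pairs, 587 were CpG island-like, here a ratio of observed to expected CpG of at least 0.6 with at least 50% G and C over the region, against 8237 unpaired promoters. In No gRNA a peak lay in 96.4% (94.6 to 97.6) of the CpG island-like pairs and in 83.2% (82.4 to 84.0) of the CpG island-like unpaired promoters. Outside that class the gap was wider, with 87.3% (83.1 to 90.6) of 300 pairs and 34.9% (34.0 to 35.9) of 10023 unpaired promoters. There the CpG content still differed, with median ratios of 0.569 in pairs and 0.333 in unpaired promoters. Divided into 5 classes of equal size by the CpG ratio of all promoters, the class of the next-to-lowest ratios (0.271 to 0.542) held 100 pairs, of which 81.0% (72.2 to 87.5) had a peak, against 36.5% (34.98 to 38.02) of 3837 unpaired promoters. In the class of the highest ratios the shares were 98.3% (95.7 to 99.3) and 86.5% (85.3 to 87.6). The class of the lowest ratios held only 13 pairs, 3 of them with a peak. Pairs were thus open more often than unpaired promoters in each of the 4 upper classes, with no overlap of intervals.

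A second transcript in the other direction also went with open promoters among genes outside the pairs. Unpaired genes that had a divergent long noncoding RNA within 1000 bp (1414 genes) had a peak in 82.8% (80.8 to 84.7) of promoters in No gRNA. Unpaired genes with no other gene 5′ end within 1000 bp (13721 genes) had one in 49.2% (48.32 to 49.99). The 2 classes also differed in CpG content, with 74.1% and 38.7% of regions CpG island-like. Among CpG island-like promoters alone the gap was smaller, at 89.4% (87.4 to 91.1) and 79.8% (78.7 to 80.8). A further 969 genes start divergently with overlapping 5′ ends, which the rule leaves out, and 89.0% (86.8 to 90.8) of these had a peak. The plot of shares by class shows all pairs above each class of unpaired promoters in both libraries.

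**Figure D1:**
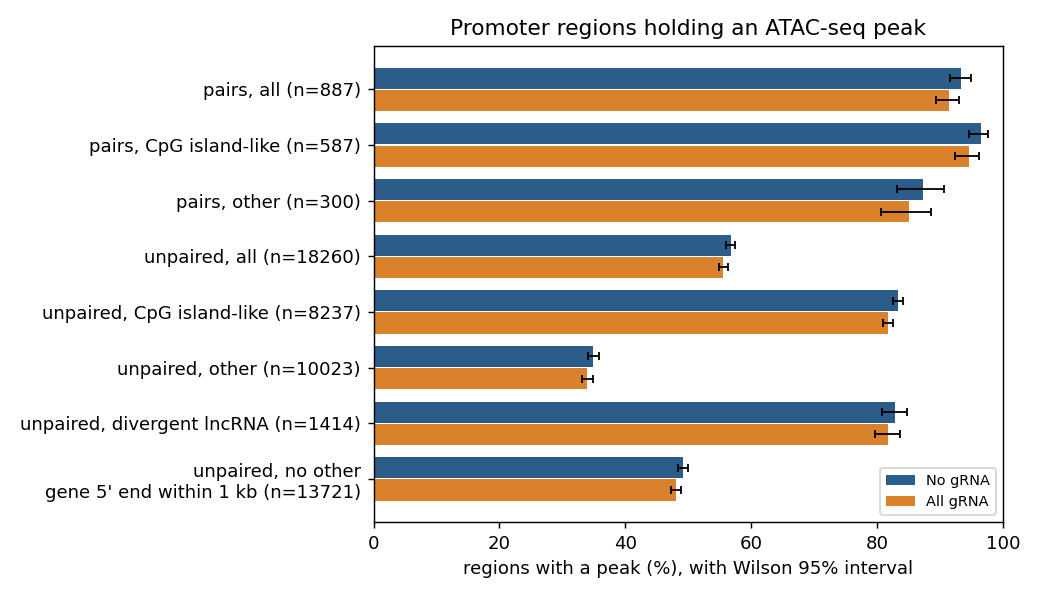
Share of promoter regions with at least 1 peak (%, from 0) in No gRNA and All gRNA, for bidirectional pairs and classes of unpaired promoters, with Wilson 95% intervals as error bars and the number of regions beside each class. Pairs (93.3% and 91.3%) lie above each unpaired class in both libraries, and pairs that are not CpG island-like (87.3% and 85.0%) lie above CpG island-like unpaired promoters (83.2% and 81.7%).

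Several peaks in a region were only slightly more frequent in pairs. Where a region had any peak, it had 2 or more in 159 pairs of 828 (19.2%) in No gRNA and in 177 of 810 (21.9%) in All gRNA, and unpaired promoters had them in 18.3% and 18.9%. Within CpG island-like regions the shares were 22.8% and 25.2% for pairs and 21.3% and 21.8% for unpaired promoters. The mean over all regions was 1.14 peaks per pair and 0.679 per unpaired promoter in No gRNA, and 1.13 and 0.667 in All gRNA. In No gRNA 669 pairs had 1 peak, 137 had 2, 17 had 3 and 5 had 4. Of the distance classes in No gRNA, only that of pairs over 600 bp apart commonly held several peaks, with 2 or more in 31 of 56 (55.4%) against 12.6% of those at 1 to 50 bp.

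The strongest peak of a pair was wider and higher than that of an unpaired promoter. The median width in No gRNA was 698 bp (quartiles 539 and 852) for pairs and 627 bp (445 and 808) for unpaired promoters, and in All gRNA 606.5 and 551 bp. Unpaired genes with a divergent long noncoding RNA had peaks as wide as those of pairs, with medians of 694 and 609.5 bp. The median −log10 q, the peak caller's adjusted significance, was 74.96 for pairs and 50.3 for unpaired promoters in No gRNA and 48.6 and 31.8 in All gRNA. The median pileup was 85 against 59 in No gRNA and 54 against 38 in All gRNA. Within CpG island-like regions the gap was smaller, 88 against 67 in No gRNA, and the genes with a divergent long noncoding RNA had 74. The quartiles of these classes overlapped widely, so the difference is one between medians of broad distributions.

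Peak height depended on the distance between the 5′ ends. The distance ranged from 1 to 995 bp with a median of 132 bp, and 717 pairs (80.8%) lay within 300 bp. Pairs were placed in 5 classes, and each class runs from just above its lower bound to its upper bound. In No gRNA the median pileup was 57 for the 146 pairs at 1 to 50 bp, about that of unpaired promoters. It was 78 for 350 pairs at 50 to 150 bp, 117.5 for 221 pairs at 150 to 300 bp, 102.5 for 109 pairs at 300 to 600 bp and 87.5 for 61 pairs at 600 to 1000 bp. All gRNA had its highest median in the same class, with 36, 50, 75, 57.5 and 55.5. Pairs 150 to 300 bp apart had quartiles of 63 and 163 in No gRNA and pairs up to 50 bp apart 34 and 89, so the distributions overlapped in part. The share of pairs with a peak stayed between 91.8% and 94.1% in No gRNA. In All gRNA it was 88.4%, 91.4%, 92.8%, 93.6% and 88.5% from the closest to the farthest class, with intervals that overlapped.

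**Figure D2:**
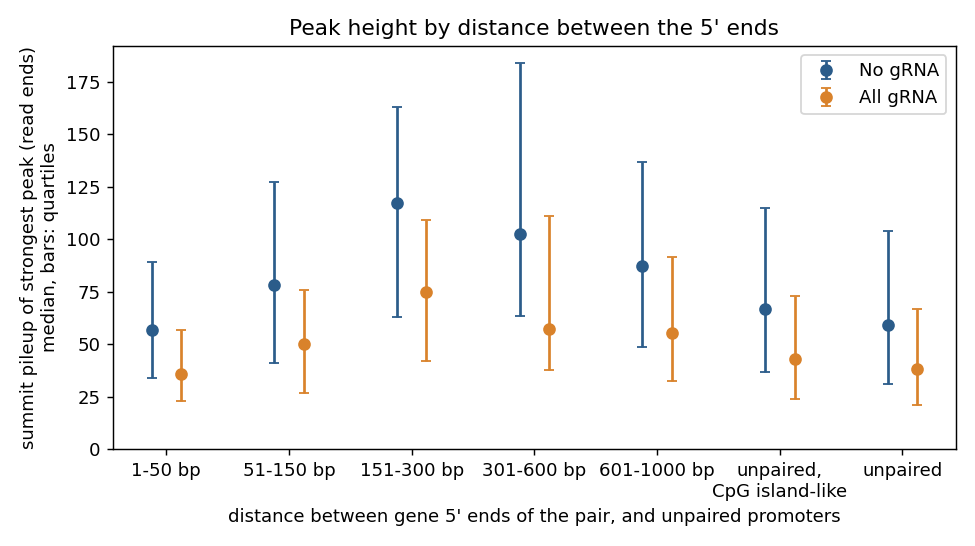
Summit pileup of the strongest peak (read ends, linear axis from 0) by distance between the 5′ ends of a pair, beside CpG island-like and all unpaired promoters. Points are medians and bars run from the lower to the upper quartile. In both libraries the median is highest at 150 to 300 bp (117.5 in No gRNA, 75 in All gRNA) and lowest of the pair classes at 1 to 50 bp (57 and 36).

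Values at the edge of the rule are given for pairs just inside and just outside 1000 bp. PSMB1/TBP (995 bp) had 2 peaks in each library, and APBA3/MRPL54 (990 bp) had 2 in each. MS4A6A/MS4A4A (991 bp) had none. Just outside, TXNDC12/BTF3L4 (1008 bp) had 3 and 2.

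One peak usually covered both start sites. In No gRNA 701 of the 828 pairs with a peak (84.7%, 82.0 to 87.0) had both 5′ ends inside a single peak, 17 had a separate peak at each end, 27 a peak at the minus-strand end alone, 60 at the plus-strand end alone and 23 at neither. In All gRNA a single peak held both ends in 656 of 810 pairs (81.0%, 78.1 to 83.5). The share fell with distance, from 94.8% at 1 to 50 bp and 93.3% at 50 to 150 bp to 88.0%, 73.5% and 17.9% in the wider classes. At 600 to 1000 bp, 14 of 56 pairs (25.0%) had a peak at each end.

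The excess of plus-strand ends (60 against 27) went with a displacement of all deposited peaks. Summits of unpaired genes lay at a median of 36 bp above the 5′ end on the plus strand and 106 bp above it on the minus strand in No gRNA, where above means towards higher coordinates. A position relative to the direction of transcription would change sign between strands, and these values did not. Their mean, 71 bp in No gRNA and 70 bp in All gRNA, measures a displacement that both strands share. The summits of pairs lay at a median of 71 bp (No gRNA) and 70.25 bp (All gRNA) above the midpoint of the pair, the same displacement from a landmark with no strand. What produced it was not tested.

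With peaks moved back by that distance, pairs were covered evenly. A single peak then held both ends in 726 of 828 pairs (87.7%, 85.3 to 89.7) in No gRNA and in 697 of 810 (86.0%, 83.5 to 88.3) in All gRNA. The ends covered alone were 34 on the minus strand and 27 on the plus strand. The summit lay between the 5′ ends in 538 of 828 pairs (65.0%) instead of 322 (38.9%), and the lower and upper sides held 143 and 147. At 150 to 300 bp, 83.2% of summits lay between the ends. Peak presence does not depend on this shift by more than a few regions, since the moved peaks gave the same counts of 20 No gRNA-only and 2 All gRNA-only pairs.

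**Figure D3:**
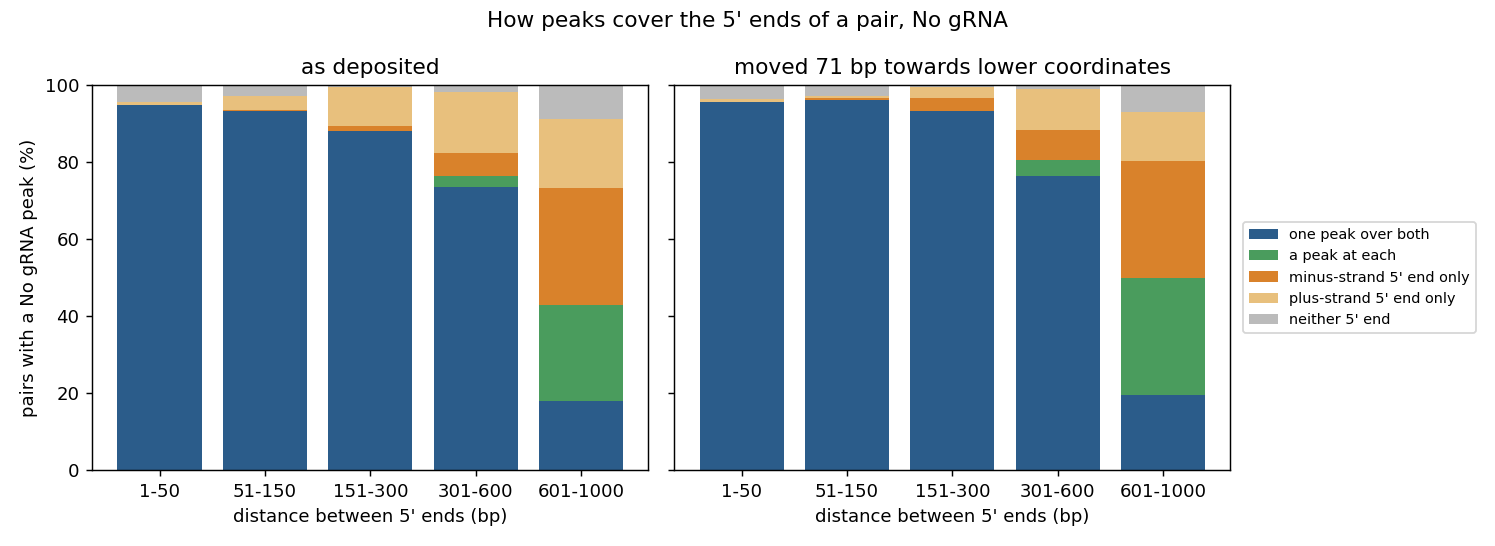
How No gRNA peaks cover the 5′ ends of a pair, by distance between the ends, as a share of pairs with a peak (%), with coordinates as deposited (left) and moved 71 bp towards lower coordinates (right). A single peak over both ends is the commonest layout up to 600 bp (94.8% to 73.5% as deposited), and at 600 to 1000 bp it makes up 17.9%.

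Peak coverage along the region was highest close to the midpoint of a pair. The highest point was 86.5% of all pairs in No gRNA, 70 bp above the midpoint, and 84.0% in All gRNA, 140 bp above it. The highest coverage of unpaired promoters in No gRNA was 46.6% for plus-strand and 45.4% for minus-strand genes. Coverage of pairs stayed above a level of 50% of its maximum from −300 to 430 bp in No gRNA and from −240 to 370 bp in All gRNA. For unpaired genes, as deposited and therefore with the displacement included, these limits in No gRNA were −210 and 470 bp on the plus strand and −350 and 360 bp on the minus strand. In All gRNA they were −200 and 420 bp and −270 and 340 bp. The profile of plus-strand genes thus reached farther towards higher coordinates, and that of minus-strand genes farther towards lower ones, when the strands are compared with each other.

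**Figure D4:**
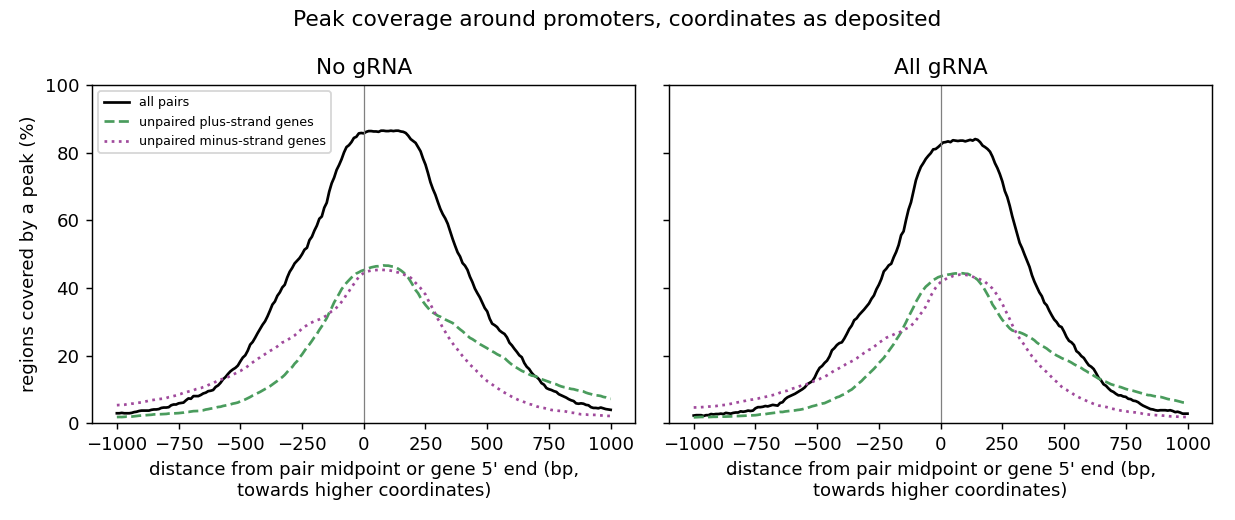
Share of regions covered by a peak (%) at each distance (bp) from the midpoint of a pair or from the 5′ end of an unpaired gene, in No gRNA (left) and All gRNA (right), with coordinates as deposited and distance counted towards higher coordinates on both strands. Pairs reach 86.5% and 84.0%, unpaired genes 43.9% to 46.6%, and all maxima lie to the right of 0.

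Between the libraries, pairs changed little in presence. A peak was present in both libraries in 808 pairs (91.1%), against 57% of all protein-coding promoters. A peak in No gRNA alone was found in 20 pairs (2.25%), and 2.79% of all promoters had this. These shares count regions without a No gRNA peak, which were far fewer among pairs. Of regions with a No gRNA peak, it was 20 of 828 pairs, 557 of 11949 promoters of all genes and 516 of 10357 unpaired promoters. By that count it was less frequent in pairs. A peak in All gRNA alone was found in 2 pairs (0.225%), against 1.5% of all promoters. Only regions without a No gRNA peak could be of this kind, and few pairs lacked one. Among such regions it was 2 of 59 pairs and 295 of 7903 unpaired promoters. The remaining 57 pairs had no peak in either library. As No gRNA was the deeper library, depth and condition cannot be told apart for the No gRNA-only peaks.

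The No gRNA-only pairs had weak peaks. By −log10 q the strongest were TK2/CKLF (a mitochondrial thymidine kinase and a chemokine-like factor, pileup 35) and CHCHD10/MMP11 (a mitochondrial protein and a matrix metalloproteinase, 28). RPL12/LRSAM1 (a protein of the large ribosomal subunit and a ubiquitin ligase) had 29 and CLIC1/MSH5-SAPCD1 (an intracellular chloride channel protein and a readthrough gene) 18. The same TK2 peak also counted for the readthrough gene CKLF-CMTM1. The All gRNA-only pairs were COG4/SF3B3 (a Golgi tethering protein and a splicing factor, 7) and SMC1B/RIBC2 (a meiotic cohesin subunit and a ciliary protein, 6). Both lay near the lowest pileup listed in a pair, 5.

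Peaks that could be matched one to one were slightly lower in All gRNA after scaling for depth. The median log2 ratio of pileups, All gRNA over No gRNA, was −0.21 over 757 matched peaks in pairs and −0.22 over 8941 in unpaired promoters. Over all 48041 matched peaks of the lists the median was −0.11, and relative to it pairs lay at −0.11 (interval of the median −0.14 to −0.08). The ratio depended on peak strength over the whole lists, and in the strongest of 5 strength classes, with 500 of the peaks in pairs, it was −0.23 in pairs and −0.24 over all peaks. Of 808 pairs with peaks in both libraries, the strongest peak lay below the depth line in 624 (77.2%).

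Few peaks in pairs moved by 2-fold or more. A peak was called where the scaled ratio was at least 2-fold with an exact conditional interval that excluded 1, which again covers counting error only. Of 757 peaks 2 were called higher in All gRNA (0.264%), against 2.44% of all matched peaks, and 21 were called lower (2.77%), against 3.27%. Matched peaks of unpaired promoters gave 0.615% higher and 2.54% lower. In the strongest of the 5 strength classes, with 500 of the 757 peaks, pairs had 0% higher and 1.8% lower. Over all peaks that class had 0.271% and 1.76%, so the shares in pairs were near those of strong peaks at large. Scaled by the median ratio of all peaks in place of the depth, 4 were higher (0.528%) and 13 lower (1.72%). Over all matched peaks that scaling gave 3.3% higher and 2.05% lower, so the balance over the lists turned towards higher peaks and that of pairs did not. These scaled shares were not formed by strength class or for unpaired promoters, so the contrast was not separated from peak strength.

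The called peaks were of modest height. At COA3/CNTD1 (an assembly factor of cytochrome c oxidase and a meiotic crossover regulator) the pileup fell from 70 in No gRNA to 16 in All gRNA, giving a scaled ratio of 0.308 (0.167 to 0.535). H3C7/H2BC9, replication-dependent histone genes, had 30 and 8 (0.359, 0.142 to 0.801). TIMM8B/SDHD (a mitochondrial import protein and a subunit of succinate dehydrogenase) had 28 and 8 (0.384, 0.151 to 0.866). C17orf75/ZNF207 (the latter a spindle assembly factor) had 42 and 12 (0.384, 0.184 to 0.744). CLDN1/CLDN16, both claudins of tight junctions, was among the lower pairs with 27 and 8 (0.399, 0.157 to 0.902). It was singled out after its values were seen. In the other direction LYPD5/ZNF283 had 15 and 25 (2.24, 1.14 to 4.58). The higher peak of ALS2CL/TMIE, 18 and 40 (2.99, 1.68 to 5.54), lay 1297 bp from the midpoint, outside the space between the genes.

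**Figure D5:**
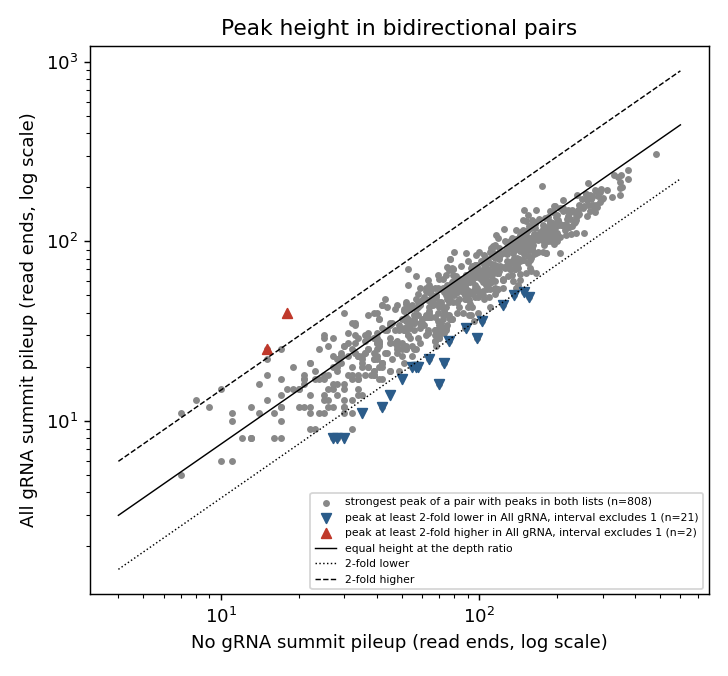
Summit pileup (read ends, log axes) in No gRNA and All gRNA for the strongest peak of 808 pairs with peaks in both lists (grey), with the 21 peaks called lower and the 2 called higher in All gRNA, which need not be the strongest of their pair. The solid line marks equal height at the depth ratio of 0.743, below which 77.2% of the pairs lie, and the other lines mark 2-fold changes. Of all matched peaks of the lists, 58.1% were lower in All gRNA, and 77.8% of those in the strongest of 5 strength classes.

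Pairs known from textbooks as bidirectional spanned a wide range of heights, from 11 to 343 in No gRNA against 7 to 483 over all pairs. Of 16 listed pairs, 9 met the distance rule with these gene ends, and all 9 had peaks in both libraries. PDCD10/SERPINI1 (a vascular signalling protein and neuroserpin) had pileups of 343 and 228 in No gRNA and All gRNA. NPAT/ATM (a regulator of histone gene transcription and the DNA damage kinase) had 210 and 171, and PRKDC/MCM4 (the DNA-dependent protein kinase and a subunit of the replicative helicase) 190 and 100. The PRKDC/MCM4 values belong to a peak above both 5′ ends (47960708 to 47961223 in No gRNA, ends at 47960178 and 47960185). A weaker peak of the region covered both ends in each library. UFD1/CDC45 (a protein degradation factor and a replication factor) had 125 and 72, and SIRT3/PSMD13 (a mitochondrial deacetylase and a proteasome subunit) 52 and 36. The collagen pairs were lowest. COL4A6/COL4A5 had 14 and 11. At SIRT3/PSMD13 and COL4A6/COL4A5, as in 15 of the 808 pairs with peaks in both libraries, the strongest peaks of the libraries did not overlap, so these values belong to different peaks. Neither COL4A6/COL4A5 nor COL4A4/COL4A3 had a single No gRNA peak over both 5′ ends. Every scaled ratio that could be formed for these pairs except that of PPAT/PAICS (0.655, 0.517 to 0.826) and PRKDC/MCM4 (0.708, 0.550 to 0.907) had an interval that included 1. The PRKDC/MCM4 ratio is that of the peak above both 5′ ends.

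The highest and the widest peaks were at other genes. After FHIP1B/CNGA4, the highest −log10 q in No gRNA belonged to LMBRD2/SKP2 (the latter the substrate receptor of an SCF ubiquitin ligase, 352 and 234), EIF2AK3/RPIA, TRMT1L/SWT1 (351 and 213) and KCTD9/CDCA2 (the latter a mitotic chromatin regulator, 376 and 249). The widest No gRNA peak over both 5′ ends was 1658 bp at PPP1R13L/POLR1G (an inhibitor of p53 and a subunit of RNA polymerase I). It was followed by MBOAT7/TSEN34 (1420 bp) and HNRNPDL/ENOPH1 (1415 bp). In All gRNA, the shallower library, each of these 3 regions held 2 peaks. They had been picked by their No gRNA width, so the libraries are not compared on equal terms here. The sequence of MBOAT7/TSEN34 also stands on alternate contigs of hg38.

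Gene groups differed in how many of their genes were paired and in peak height. Groups were fixed by gene symbol and not by function, so a group can hold genes of other roles. Counted by symbol were for example RPS6KB1 (cytosolic ribosome), RPAP2 and MCM3AP (DNA repair and replication) and PSME3IP1 (proteasome). Of all protein-coding genes 8.56% were in pairs. The share was 24.3% for genes of DNA repair and replication (33 of 136), 24.3% for oxidative phosphorylation (27 of 111), 21.8% for the mitochondrial ribosome (17 of 78), 30.7% for histone genes (27 of 88) and 14.3% for the cytosolic ribosome (14 of 98). Proteasome genes were at 14.0% (7 of 50), tRNA synthetases at 9.09% (3 of 33), collagens at 9.09% (4 of 44) and zinc finger genes at 6.70% (41 of 612).

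Pairs of DNA repair and replication genes stood high. Their median pileup in No gRNA was 125 over the 31 pairs with a peak there, against 85 over all 828 such pairs. Of the 33 pairs in the group 30 had a peak in both libraries, and RAD51D/FNDC8 and PRSS54/GINS3 had none. Proteasome pairs had a median of 131 over 7 pairs, all with peaks in both libraries, from PSMA1/PDE3B (30 and 12) to PSMB1/TBP (167 and 108).

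Pairs of mitochondrial genes lay near the median of all pairs. The mitochondrial ribosome had 80 over its 18 pairs, all with a No gRNA peak, from SLC7A7/MRPL52 (23 and 17) to MRPL50/ZNF189 (272 and 179). Oxidative phosphorylation had 70 over 27 of 28 pairs, those with a No gRNA peak, from COX16/ADAM21 (13 and 8) to NDUFA11/VMAC (282 and 192). ATP5MJ/TDRD9 had no peak in either library, and MRPL36/NDUFS6, a member of both groups, had peaks in No gRNA alone. Zinc finger pairs had 87 over 35 of 36 pairs and cytosolic ribosome pairs 66.5 over all 14.

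Histone pairs had low peaks for their number. Their median was 42 over 14 of 15 pairs, with 111 and 66 at H2AC25/H2BC26. H2AC14/H2BC14 had a peak in No gRNA alone (19). H2AC1/H2BC1, a testis histone pair, had none. Histone genes are near-identical copies of each other, so values at a single pair are uncertain.

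The 57 pairs without a peak in either library had fewer CpGs. Their median CpG ratio was 0.541 against 0.703 for the 808 pairs with peaks in both libraries, and 35.1% against 68.6% were CpG island-like. Those with the closest 5′ ends were LYSMD2/TMOD2 (12 bp), PLCZ1/CAPZA3 (19 bp), CIDEB/LTB4R (20 bp), PRSS54/GINS3 (33 bp) and CFAP90/MTRR (35 bp). PLCZ1, a sperm phospholipase, and CAPZA3, a testis actin-capping subunit, are known from germ cells. WNT3/WNT9B (47 bp), GABRA4/GABRB1 (subunits of a receptor for GABA) and DUOX2/DUOXA2 (thyroid oxidase and its maturation factor) had none either, the last 2 singled out after their values were seen. CTNND1 (p120 catenin) and UHRF1 (a factor of DNA methylation maintenance), genes in use in many cell types, were among the 57 too, in BTBD18/CTNND1 and ARRDC5/UHRF1, and were likewise singled out.

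In 18 of the 57 at least 1 gene had a No gRNA peak at its Ensembl canonical start, away from the gene 5′ end that formed the pair. GINS3, a subunit of the replicative helicase, had its canonical start 97391 bp from the annotated 5′ end, with a peak there. MTRR, methionine synthase reductase, had its canonical start 17962 bp away, with 2 peaks. CTNND1 and UHRF1 had theirs 8559 and 6421 bp away, each with 1 peak. With canonical starts in place of gene ends 984 pairs were found, and 95.8% of them had a peak in No gRNA and 95.4% in All gRNA.

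Pairs whose sequence also stands on an alternate contig of hg38 had fewer peaks. At least 4 of 5 windows of 31 bases were found again on alternate contigs for 31 pairs, 14 of them on chromosome 6. A peak lay in 70.97% (53.4 to 83.9) of these in No gRNA and 54.8% (37.8 to 70.8) in All gRNA, against 94.2% (92.4 to 95.5) and 92.6% (90.7 to 94.2) of the other 856. They made up 9 of the 57 pairs without a peak and 5 of the 20 No gRNA-only pairs. HSPA1L/HSPA1A, heat shock proteins of the major histocompatibility region, had no peak on chromosome 6 in either list. The copies on alternate contigs held peaks of up to 70 in No gRNA and 34 in All gRNA. CLIC1/MSH5-SAPCD1 and CHCHD10/MMP11, named above as No gRNA-only, had peaks on a copy in All gRNA as well (23 and 16).

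Short sequence motifs were counted in the 300 bases from 250 before to 50 after the 5′ end of each gene, on both strands. Each motif was counted on its own, so that matches may overlap, and genes of a close pair share bases. A match describes letters and is not evidence of a bound factor. CCGGAAG, the core of ETS family sites, stood in 27.3% (25.2 to 29.4) of genes in pairs, 10.4% (10.0 to 10.9) of unpaired genes and 11.9% of all promoters. Among CpG island-like regions the shares were 25.7% and 13.6%. GCGCATGC, of NRF1, stood in 8.77% of genes in pairs, 3.28% of unpaired genes and 3.75% of all promoters. AAGATGGCG, of YY1, stood in 4.21%, 1.66% and 1.88%, and the palindrome CTCGCGAG in 2.81%, 1.06% and 1.21%. Among CpG island-like regions these 3 motifs stood in 8.81%, 3.78% and 3.61% of genes in pairs and in 4.63%, 2.46% and 1.71% of unpaired genes.

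The gap between pairs and unpaired genes narrowed within CpG island-like regions for most motifs, in proportion most for the GC box and the TATA box. The GC box, GGGCGG, stood in 72.0% of genes in pairs, 50.6% of unpaired genes and 52.4% of all promoters, but in 78.4% and 74.6% within CpG island-like regions. TATAAA stood in 5.09% of genes in pairs, 11.4% of unpaired genes and 10.8% of all promoters, with 4.03% and 5.52% within CpG island-like regions. For CCAAT, of NFY, the gap stayed nearly as wide, with 40.9%, 35.5% and 35.9%, and 38.1% and 33.3% within CpG island-like regions. CAGGTG, an E-box that ZEB1 is known to bind, stood in 16.96%, 21.97% and 21.5%, with 16.3% and 19.2% within them. Over pairs with and without CAGGTG in the space between the ends or the first 50 bases of either gene, the median log2 ratio of pileups between the libraries was −0.16 and −0.25. Pairs with CAGGTG were also farther apart, at a median of 265.5 bp against 120 bp. A wider gap, in the other direction, stood at TATAAA (−0.39 with and −0.23 without it), and one of similar size at GCGCATGC (−0.32 and −0.24).

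Peak height differed with CCAAT and with GGGCGG. For this comparison the window of a pair was the space between the ends plus 50 bases inside each gene, so that pairs farther apart had more letters searched. Pairs with CCAAT had a median pileup of 108 in No gRNA (347 pairs) and those without it 70, and the values were 70 and 46 in All gRNA. Pairs with CCAAT were also farther apart, at a median of 210 bp against 98 bp. Within distance classes the values in No gRNA were 98 with and 70 without CCAAT at 50 to 150 bp, 129.5 and 105 at 150 to 300 bp, 115 and 82 at 300 to 600 bp and 107.5 and 50 at 600 to 1000 bp. At 1 to 50 bp they were 50 (15 pairs) and 62.5 (120 pairs), the other way round. CCGGAAG, though more frequent in pairs, did not go with higher peaks, at 80 with and 87 without it. Unpaired genes with CCAAT also had higher peaks, 75 against 52, so this difference was not particular to pairs.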

How the data were processed

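ATAC-seq peak lists of 2 SUM159 libraries (No gRNA and All gRNA, 1 library each) were analysed. The authors trimmed reads with fastp, mapped them with bowtie2 to hg38 and discarded duplicates, mitochondrial reads and reads of excluded regions. They called peaks with MACS2 for each library alone, without a control (extension 150 bp, shift −75 bp stated). The deposited columns are position, summit, a fold enrichment over local background (a ratio), −log10 p and −log10 q, all from the authors' peak caller. The shortest deposited peak was 200 bp, longer than the stated extension.

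Pileup and background were solved for each peak from the fold and −log10 p, as MACS2 without a control computes them. A whole-number pileup matched the −log10 p within 0.005 in 100% of peaks. No library totals were used: the ratio of the lowest backgrounds (0.484 in All gRNA and 0.652 in No gRNA) gave the depth ratio, and its precision is not known. Both ends of a fragment can count, so neighbouring counts are not independent molecules.

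Genes, 5′ ends and canonical transcripts came from GENCODE release 44 on hg38, the build of the lists. A region had a peak where at least 1 bp overlapped, and its strongest peak was the one with the highest −log10 q. Shares have Wilson 95% intervals, and ratios exact conditional (Clopper-Pearson) intervals. Calls needed a 2-fold change with an interval that excluded 1. The procedures were tested on simulated data. Pairs were named by fixed rules (textbook pairs, the highest, the widest, the most changed, one-library pairs and the closest pairs without a peak), and the lowest and highest pair of a gene group was added after seeing the data, except 1 that is not reported here. Alternatives were peak thresholds, overlap rules, gene starts, distance and classes of unpaired promoters. The members and lists were chosen with earlier results of these data known. Python 3.11.15, numpy 2.4.6, pandas 2.3.3, scipy 1.17.1, pysam 0.24.0, samtools 1.23.1 and matplotlib 3.10.9 were used.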

Additional observations from a re-analysis of the deposited data

Results flagged for a closer look

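Peaks on alternate contigs of hg38 were outside the comparisons of pairs, which used chromosomes 1 to 22 and X. Of the 31 pairs with a sequence copy on such a contig, 27 had a peak on a copy in No gRNA and 23 in All gRNA. Of these 31, 5 had no peak on the chromosome but one on a copy in No gRNA, and 6 did in All gRNA.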

How the results depend on the processing

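Of 180 recomputed values, 123 stayed within the interval of the reported value or, for counts and mean numbers, within 1.5 times of it, 57 moved and none reversed direction. Pairs stayed above unpaired promoters in share, number, width and −log10 q under each alternative tried, except that in All gRNA the unpaired promoters with a divergent long noncoding RNA had a median width above that of pairs.

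With a −log10 q of at least 5, unpaired promoters had a peak in 55.8% (No gRNA) and 53.1% (All gRNA), and their All gRNA median width and −log10 q were 563 bp and 33.6. With at least 10, pairs had a peak in 89.9% and 85.7% and unpaired promoters in 51.6% and 47.1%. The medians of unpaired promoters were then 653 and 591 bp and 56.5 and 37.9, and 42 pairs were No gRNA-only and 5 All gRNA-only. With the 50000 strongest peaks of each list the shares were 90.5% and 88.4% for pairs and 52.5% and 50.8% for unpaired promoters. The unpaired medians were 649 and 575 bp and 55.4 and 35.2, and 8 pairs were All gRNA-only. With summits inside the region, unpaired promoters had a peak in 55.2% and 54.1%.

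With pairs up to 500 bp, a single peak held both ends in 90.5% and 87.1%. With canonical starts, pairs had a peak in 95.8% and 95.4%, median widths of 719 and 636 bp, one peak over both ends in 77.0% in All gRNA, and 11 No gRNA-only and 7 All gRNA-only pairs. Moved back by the displacement, a choice made after seeing the data, peaks held both ends in 87.7% and 86.0%.

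Unpaired promoters with no other gene within 1000 bp had a peak in 49.2% and 48.0%, with medians of 592 and 525 bp and 44.6 and 28.4. CpG island-like ones had 83.2% and 81.7%, 1.02 and 1.008 peaks per promoter, 681 and 597 bp and 57.6 and 36.0. Those with a divergent long noncoding RNA had 82.8% and 81.8%, 694 and 609.5 bp and 64.8 and 40.8. Scaling by the median ratio of all peaks moved the median log2 ratio in pairs to −0.11.

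No paired analysis was possible because 1 library stood for each condition. Leaving out pairs copied on alternate contigs, and keeping 1 pair per locus, both added after seeing the data, moved no value past these limits. Depth limits the weakest peaks, so a region without a peak is below the caller's threshold and not shown to be closed.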

Other observations

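Pairs were spread unevenly over the chromosomes. Chromosome 1 held most (78 pairs among 2061 genes, 3.78 per 100 genes) and chromosome 21 fewest (6 among 220, 2.73 per 100). Relative to gene number chromosome 14 was richest (40 among 616, 6.49 per 100), followed by chromosome 6 (61 among 1051, 5.80 per 100) and chromosome 12 (57 among 1038, 5.49 per 100). Chromosome X had 3.03 per 100 genes. These values come from the annotation and not from the libraries.

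Among unpaired promoters the CpG island-like class with a divergent long noncoding RNA came closest to CpG island-like pairs in peak height, with median pileups of 78 (No gRNA) and 50 (All gRNA) against 88 and 56. A peak lay in 89.4% (87.4 to 91.1) of its 1048 regions in No gRNA.

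TATAAA went with fewer and lower peaks in pairs. Of the 47 pairs with TATAAA in the space between the ends or the first 50 bases of either gene, 40 had a peak in No gRNA (85.1%), and their median pileup was 53 against 87 in pairs without it. The median distance was 244 bp with and 128 bp without TATAAA, and the 2 were not compared within distance classes.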
